A study of Mus musculus with 10 samples.

Results

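The ERBB receptors and their ligands were followed across 5 sorted populations of mouse small intestinal crypt cells. The group was defined by name and comprises the receptors Egfr, Erbb2, Erbb3 and Erbb4, the ligands Areg, Ereg, Hbegf, Btc and Nrg1, and the receptor inhibitor Errfi1. All 10 genes were found among the 35006 gene rows counted in each of 10 libraries.

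ERBB receptors are tyrosine kinases that pair when a ligand of the EGF family binds. EGFR and ERBB4 bind ligand and signal themselves, ERBB2 has no known ligand and acts as the partner of the others, and ERBB3 binds neuregulins but depends on a partner for kinase activity. Ligands are made as membrane-anchored precursors and are cut loose by metalloproteases, and the bound receptors signal through RAS and the ERK kinases. In intestinal crypts this pathway is known for driving the division of stem and progenitor cells, with EGF supplied in part by Paneth cells, and ERRFI1 is a feedback inhibitor that binds the kinase domains of EGFR and ERBB2.

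The mice were EF1a-OSCAR animals of strain C57BL6/J, which carry at Rosa26 a construct that joins mCherry to VeN90, a Venus protein with a peptide substrate of CDK9, under the EF1a promoter. The stop cassette had been removed in the germ line by Vasa-Cre, so the reporter was not limited to a cell type, and no animal was treated. Live EpCAM+ crypt cells were gated by OSCAR and EF1a signal into P1 (OSCARlow EF1alow), P2 (OSCARhigh EF1alow), P3 (OSCARlow EF1ahigh), P4 (OSCARmed EF1alow) and P5 (OSCARmed EF1ahigh), with 10000 cells sorted per population. Poly-A RNA of 2 biological replicates per population was sequenced, and the age of the mice is not given in the sources used here. The fluorescence of VeN90 rises when CDK9, the kinase that releases RNA polymerase II for elongation, is inhibited, and the comparison of the gates asks which cells have low or high polymerase activity.

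Depth ran from 3857612 to 6485823 gene counts per library. Those labelled P2 carried the secretory cells. There, 8 Paneth markers summed to 569645 and 410496 CPM, and in the other 8 libraries to between 504 and 64420 CPM. CPM are counts scaled to the effective library size, which is the depth times a TMM factor. This factor was 0.689 and 0.708 for P2 and ran from 0.490 to 1.56 elsewhere. The sums are therefore not shares of the reads, and those for P2 lie above the shares. The study describes the secretory cells as belonging to P3, so the labels of P2 and P3 go against that description, and both names are used here only as labels. The mitochondrial share of counts was 59.2% and 36.1% in P3 and lay between 1.04% and 5.19% elsewhere. Epcam was present in all libraries, at 541 to 1608 CPM, while 8 stromal markers summed to at most 7.08 CPM. Immune markers summed to 410 and 538 CPM in P1 and to between 22.2 and 239 CPM elsewhere, and Ptprc, the pan-leukocyte antigen, stood at 112 and 25.7 CPM in P1. These sums were not led by the same gene in each library. Cd74 alone held 397 CPM in P1 replicate 2, and 235, 187 and 212 CPM in replicate 2 of P3, P4 and P5. The T cell genes Cd3e (27.5 and 10.3 CPM) and Cd8a (121 and 23.9 CPM) were found in P1 and stood at 0 CPM in the libraries labelled P2. Enterocyte markers summed to 47273 and 39930 CPM in P1 and to between 2479 and 26563 CPM elsewhere, and stem cell markers to 678 and 977 CPM in P1 and to between 4343 and 7261 CPM in P4 and P5. The enterocyte sums of P1 thus lay above those of every population it is compared with below, but single markers did not all follow. Sis stood at 1608 and 850 CPM in P1 and at 3633 and 1955 CPM in P5. Of the 10 markers, P1 was called higher than P2 in 6, than P4 in 3, than P5 in 2 and than P3 in 1, with 0 called lower. The part of the enterocytes in the differences from P1 was not tested. These RNA pools cannot tell fewer cells of a type from less RNA per cell.

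Levels below are TMM-scaled CPM, and differences are log2 fold changes with their standard error (SE). A gene was called at an adjusted p under 0.01 in the quasi-likelihood test of edgeR, with p-values adjusted by Benjamini-Hochberg over 13708 genes that passed the filter on low counts. With 2 libraries against 2, an exact permutation test of a single gene cannot go below 0.333, so all p-values come from the model across genes. Over the 5 populations, 2 of the 8 members that passed the filter were called, Erbb2 and Errfi1, where 36.3% of all genes were called.

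**Figure D1:**
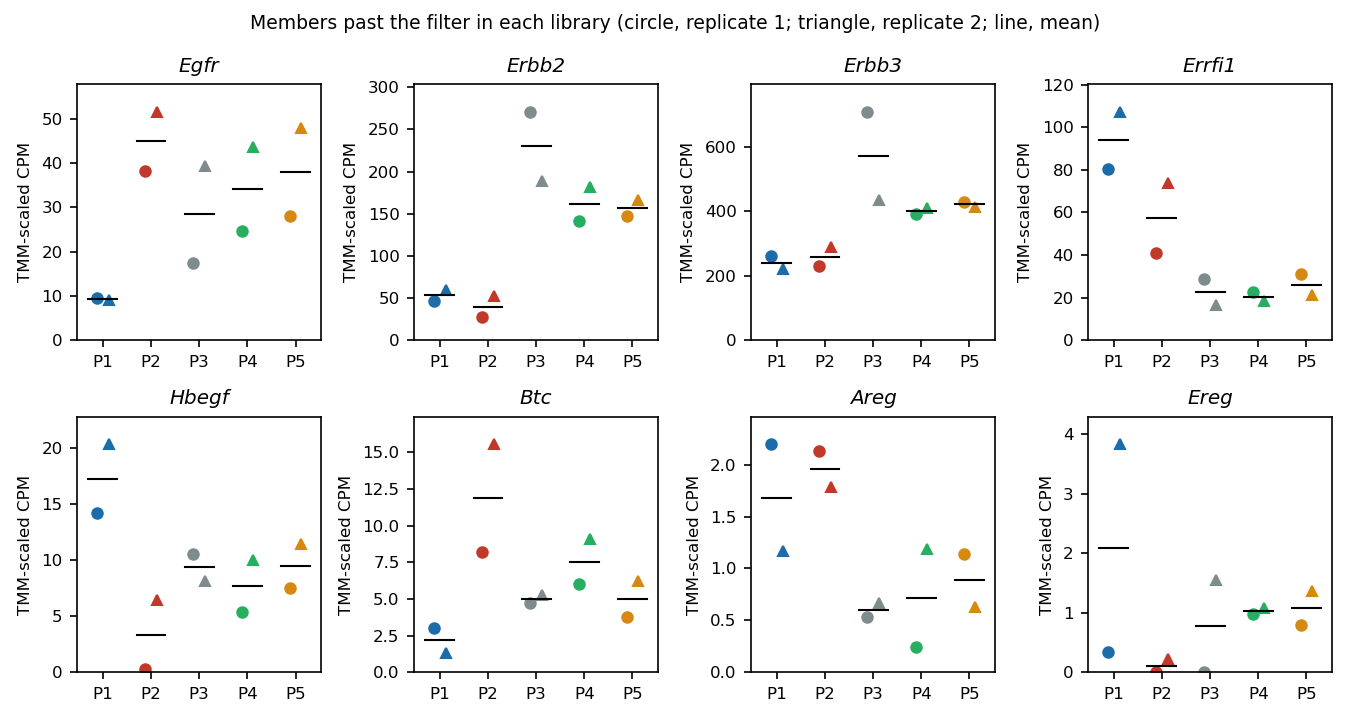
TMM-scaled CPM (y axis, from 0) of the 8 members that passed the filter in each library of P1 to P5 (x axis), with replicate 1 as a circle, replicate 2 as a triangle and the mean as a line. Erbb2 is highest in P3, P4 and P5 (142 to 271 CPM) and at most 59.5 CPM in P1 and P2, while Errfi1 is highest in P1 (80.4 and 107 CPM).

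Erbb2, the ligandless partner receptor, lies on chromosome 11 of NCBIM37 (mm9) from 98273784 to 98299030 on the plus strand. Its level was 46.8 and 59.5 CPM in P1 and 27.4 and 52.3 CPM in the libraries labelled P2. It was 271 and 189 CPM in those labelled P3, 142 and 181 CPM in P4, and 148 and 167 CPM in P5. Every library of P3, P4 and P5 thus lay above every library of P1 and P2, while P1 and P2 overlapped. Erbb2 was higher than in P1 by 2.11 in P3 (SE 0.33, adjusted p = 0.00254) and by 1.56 in P5 (SE 0.32, adjusted p = 0.00627). P1 against P4 gave -1.60 (SE 0.32, adjusted p = 0.00483). Against the libraries labelled P2 the differences were as clear, with P2 minus P4 at -2.01 (SE 0.33, adjusted p = 0.00273), P2 minus P5 at -1.97 (SE 0.33, adjusted p = 0.00259) and P2 minus P3 at -2.52 (SE 0.34, adjusted p = 0.000695). Of these 6 calls, only that between P2 and P3 held whichever library was left out, and each of the others was lost without at least 1 library of P1, P2, P4 or P5. Between P1 and P2 the difference was -0.41 (SE 0.33, adjusted p = 0.326). The exons of Erbb2 share bases with 1810046J19Rik on the opposite strand, which the counting could not separate by strand, and that gene had between 61 and 323 counts per library, with the highest counts in P1.

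Egfr, the receptor for EGF and several other ligands, lies on chromosome 11 from 16652206 to 16818161. It stood at 9.63 and 9.17 CPM in P1, from 57 and 55 counts. The libraries labelled P2 held 38.3 and 51.6 CPM and those labelled P3 held 17.5 and 39.4 CPM. P4 held 24.7 and 43.6 CPM, and P5 held 28.0 and 48.1 CPM. P1 was below all other libraries, and the other 4 populations overlapped each other, with replicate 2 above replicate 1 in each. Egfr was higher than in P1 by 2.26 in the libraries labelled P2 (SE 0.45, adjusted p = 0.00361) and by 2.01 in P5 (SE 0.45, adjusted p = 0.00803). P1 against P4 gave -1.86 (SE 0.44, adjusted p = 0.00964). P3 against P1 gave 1.63 (SE 0.45), with an adjusted p of 0.0227 that misses the threshold. The joint test over the 5 populations also missed it (adjusted p = 0.0179). The call against P4 was lost in edgeR's test with RLE scaling in place of TMM, while the DESeq2 test kept it. It was also lost without any single library of P1, P2, P4 or P5. The call against P5 was lost without any single library of P1, P2 or P5, and that against P2 without any of P1 or P2.

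Erbb3, the neuregulin receptor with a weak kinase, lies on chromosome 10 from 128004579 to 128026708 on the minus strand. P1 held 260 and 220 CPM, and the libraries labelled P2 held 229 and 287 CPM. The levels were 708 and 435 CPM in P3, 391 and 410 CPM in P4, and 429 and 412 CPM in P5. P3, P4 and P5 lay above P1 and P2 in every library, as for Erbb2, but within a narrower range. No pair of populations was called for Erbb3, and the joint test over the 5 populations missed the threshold (adjusted p = 0.0179). The nearest were P3 against P1, at 1.25 (SE 0.29, adjusted p = 0.0104), and P2 against P3, at -1.14 (SE 0.28, adjusted p = 0.0125), and both involve the P3 libraries with their high mitochondrial share. With mitochondrial genes removed, P3 against P1 was called, at 1.30 (adjusted p = 0.00575), and P2 against P3 was not, at -1.05 (adjusted p = 0.0117). Of 18 alternatives, 7 called the former and 5 the latter. Erbb4, the remaining receptor, had 2 counts in all, both in P4 replicate 1, and did not pass the filter. A count of 0 allows up to 3 counts, or between 0.297 and 1.59 CPM depending on the library, for counting error only.

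The start regions of the receptor and inhibitor genes with calls are shown because Erbb2 and Errfi1 were highest in different populations. The sequences are 250 bases upstream of RefSeq starts, taken from a GRCm38.p6 table and located by exact match in NCBIM37, on the plus strand. Capitals mark motifs searched on both strands: the CCAAT box, the GC box GGGCGG, the TATA element TATAAA, the cyclic AMP response element TGACGTCA and the AP-1 element TGACTCA. The window of Erbb2 is chr11:98273548-98273797 and reaches 14 bases into the annotated gene, that of Egfr is chr11:16651956-16652205, and that of Errfi1 is chr4:150228929-150229178, which lies in the first intron of the longer annotated transcript and just upstream of the shorter ones.
Erbb2: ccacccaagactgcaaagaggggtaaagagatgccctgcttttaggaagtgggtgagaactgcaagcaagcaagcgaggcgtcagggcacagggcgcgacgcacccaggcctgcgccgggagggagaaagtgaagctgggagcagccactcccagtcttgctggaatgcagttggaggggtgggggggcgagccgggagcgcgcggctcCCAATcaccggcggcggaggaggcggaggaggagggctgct
Egfr: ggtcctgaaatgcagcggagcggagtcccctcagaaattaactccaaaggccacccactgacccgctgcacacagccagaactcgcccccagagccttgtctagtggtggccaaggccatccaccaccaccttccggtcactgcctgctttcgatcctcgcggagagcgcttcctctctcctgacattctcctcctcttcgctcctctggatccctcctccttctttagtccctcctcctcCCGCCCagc
Errfi1: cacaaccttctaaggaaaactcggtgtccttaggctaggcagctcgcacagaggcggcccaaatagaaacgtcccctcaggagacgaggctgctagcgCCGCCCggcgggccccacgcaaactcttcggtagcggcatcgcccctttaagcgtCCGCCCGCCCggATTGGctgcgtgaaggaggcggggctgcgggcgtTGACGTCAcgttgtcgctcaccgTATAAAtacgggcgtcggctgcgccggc
The window of Erbb2 held 1 CCAAT and that of Egfr held 1 GC box. The printed window of Errfi1 held 1 TGACGTCA, 1 TATAAA, 3 GC boxes, of which 2 overlap, and 1 CCAAT. RefSeq gives a second start of Errfi1, whose window, chr4:150227655-150227904, ends 123 bases before the annotated gene and held none of the 5 motifs. Among 32536 windows of the same length, 1.56% held TGACGTCA, 12.3% TATAAA, 33% the GC box, 33.8% CCAAT and 4.45% TGACTCA. These are matches of letters and no measurement of binding.

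Errfi1, the feedback inhibitor, lies on chromosome 4 from 150228028 to 150243001 and ran in the other direction from Erbb2. Its level was 80.4 and 107 CPM in P1 and 40.7 and 73.8 CPM in the libraries labelled P2. It was 28.6 and 16.4 CPM in P3, 22.5 and 18.2 CPM in P4, and 31.0 and 21.3 CPM in P5. P1 and P2 lay above P3, P4 and P5 in every library, and P1 lay above P2. P1 exceeded P4 by 2.20 (SE 0.37, adjusted p = 0.00216). Relative to P1, Errfi1 was at -1.84 in P5 (SE 0.36, adjusted p = 0.00483) and at -2.10 in P3 (SE 0.38, adjusted p = 0.00413). For P2 the differences were 1.5 against P4 (SE 0.36, adjusted p = 0.0142), 1.39 against P3 (SE 0.38, adjusted p = 0.0181) and 1.14 against P5 (SE 0.36, adjusted p = 0.0388), none of them called. The calls against P5 and P3 were lost without either P1 library, that against P4 without P1 replicate 2 or either P4 library, that against P5 also without either P5 library, and that against P3 also without P3 replicate 2. The enterocyte and immune marker sums were also highest in P1, but in the libraries labelled P2, next in the order of Errfi1, the immune sums were 90.6 and 119 CPM and the enterocyte sums 2479 and 5864 CPM, within or below the range of the other populations. Those immune sums of P2 were mostly Lyz2 (72.7 and 46.5 CPM) and Cd74 (2.43 and 50.0 CPM), with Cd3e and Cd8a at 0 CPM. The part of enterocytes and immune cells in the Errfi1 level was not tested.

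Ratios between members within a library do not depend on scaling. Errfi1 had 1.72 (95% Wilson interval 1.48 to 1.99) and 1.80 (1.58 to 2.05) counts per count of Erbb2 in P1, and 1.49 and 1.41 in the libraries labelled P2. The ratio was 0.105 and 0.0865 for P3, with 0.159 and 0.10 for P4 and 0.210 and 0.128 for P5. The populations thus fell into a pair with more inhibitor than Erbb2 reads and a trio with far fewer, and no library of one set reached the other. Errfi1 against Egfr set P1 apart alone, at 8.35 and 11.7 counts per count, with 0.416 to 1.64 in the other 8 libraries. These intervals cover counting error only.

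Per exon length, Erbb3 was the most abundant of the 3 receptors detected and Egfr the least in all 10 libraries. In P2 replicate 1 the rank of Egfr below Erbb2 rests on the lengths, 11326 bases for Egfr and 5210 for Erbb2. Before division by length, the libraries labelled P2 had 126 and 232 counts of Egfr and 90 and 235 of Erbb2. The lengths join all exons of an annotation that may differ from the one used for counting. Mean levels in RPKM, the CPM per kilobase of exon, ran from 39.9 in P1 to 95 in P3 for Erbb3, from 7.64 in P2 to 44.2 in P3 for Erbb2, and from 0.830 in P1 to 3.97 in P2 for Egfr. Erbb3 made up between 63.8% and 81.5% of the receptor transcripts. Erbb2 made up 16.9% and 23.4% in P1 and 11.2% and 16.1% in P2, and between 27.7% and 32.6% in P3, P4 and P5. The share of Egfr was 7.24% and 7.31% in the libraries labelled P2, against 1.60% and 1.66% for P1. It was 0.90% and 3.10% for P3, 2.31% and 3.61% for P4, and 2.42% and 4.05% for P5. The libraries labelled P2 therefore had the largest Egfr shares, above every other library. Their Erbb2 shares were the smallest, but the 16.1% of P2 replicate 2 lay just below the 16.9% of P1 replicate 1. A larger Egfr share lowers the other shares of the same library. Set against Erbb3 alone, Erbb2 had 0.119 and 0.182 counts per count in P2 and 0.180 and 0.271 in P1, which overlap. Erbb2 was not called between P2 and P1.

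**Figure D2:**
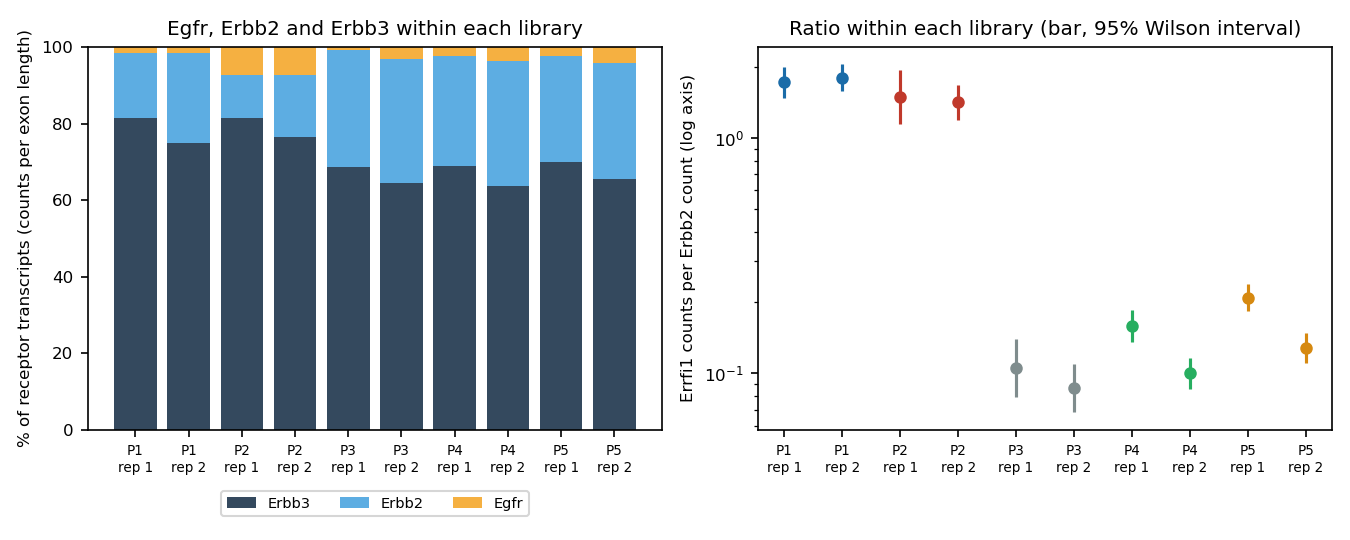
Left, percent of the Egfr, Erbb2 and Erbb3 transcripts (counts per exon length, y axis) in each library (x axis); right, Errfi1 counts per Erbb2 count on a log axis, with 95% Wilson intervals as bars. Erbb2 takes 27.7% to 32.6% in the libraries of P3, P4 and P5, Egfr takes 7.24% and 7.31% in those labelled P2, and the ratio is 1.41 to 1.80 in P1 and P2 against 0.0865 to 0.210 in the others.

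Among the ligands, Btc and Hbegf had enough counts to be compared, and both differed most between P1 and the libraries labelled P2, in opposite directions. Btc encodes betacellulin, a ligand of EGFR and ERBB4, and lies on chromosome 5 from 91786287 to 91831939. It stood at 3.04 and 1.33 CPM in P1 and 8.21 and 15.6 CPM in P2. It was 4.76 and 5.31 CPM in P3, 6.0 and 9.10 CPM in P4, and 3.77 and 6.23 CPM in P5. P1 was below all other libraries, and P2 overlapped P4 alone. Btc was higher in P2 than in P1 by 2.44 (SE 0.56, adjusted p = 0.00702), from 97 counts against 26, and this call was lost without any single library of P1, P2, P4 or P5. The difference itself ranged from 1.91 to 3.13 over the alternatives, both ends without a library of P1 or P2.

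Hbegf encodes heparin-binding EGF-like growth factor. It stood at 14.2 and 20.4 CPM in P1 and at 0.304 and 6.45 CPM in the libraries labelled P2, where replicate 1 held 1 count and replicate 2 held 29. The other populations had 10.6 and 8.19 CPM in P3, 5.39 and 9.99 CPM in P4, and 7.54 and 11.4 CPM in P5. P1 lay above every other library, but P2 minus P1, at -2.27 (SE 0.79, adjusted p = 0.0396), was not called, and neither was any other pair.

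Areg and Ereg, the amphiregulin and epiregulin genes, were near the limit of detection. Both lie on chromosome 5 close to Btc, from 91568641 to 91577458 and from 91503643 to 91522675. Areg had between 1 and 13 counts per library, and its highest levels were 2.20 CPM in P1 replicate 1 and 2.13 CPM in P2 replicate 1. Ereg had between 0 and 23 counts per library, and its highest level, 3.84 CPM, came from P1 replicate 2, while P1 replicate 1 stood at 0.338 CPM. Neither was called in any comparison. Nrg1, a neuregulin ligand of ERBB3 and ERBB4, had 1 count in all, in P2 replicate 2, and did not pass the filter.

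In order of mean level, Egfr ran from P2 through P5, P4 and P3 to P1, Erbb2 from P3 through P4, P5 and P1 to P2, and Errfi1 from P1 through P2, P5 and P3 to P4. The only neighbours in these orders that passed the threshold were P5 and P1 for Erbb2. Erbb3 ran from P3 through P5, P4 and P2 to P1, Btc from P2 through P4, P3 and P5 to P1, and Hbegf from P1 through P5, P3 and P4 to P2. Areg ran from P2 through P1, P5 and P4 to P3, and Ereg from P1 through P5, P4 and P3 to P2. No neighbours differed past the threshold in these 5 orders.

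The 10 pairs of populations held different numbers of calls. Between P1 and P4, 3 of 8 members were called (23.5% of all genes), with Errfi1 higher and Egfr and Erbb2 lower in P1, and the same 3 genes in the same direction were called between P5 and P1 (19.8% of all genes). These comparisons share the P1 libraries. P3 against P1 called 2 members (15.6% of all genes), Erbb2 and Errfi1, and P2 against P1 called 2 (29.1% of all genes), Egfr and Btc. P2 differed by Erbb2 alone from P4 (14.3% of all genes), from P5 (15.9% of all genes) and from P3 (21.0% of all genes).

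**Figure D3:**
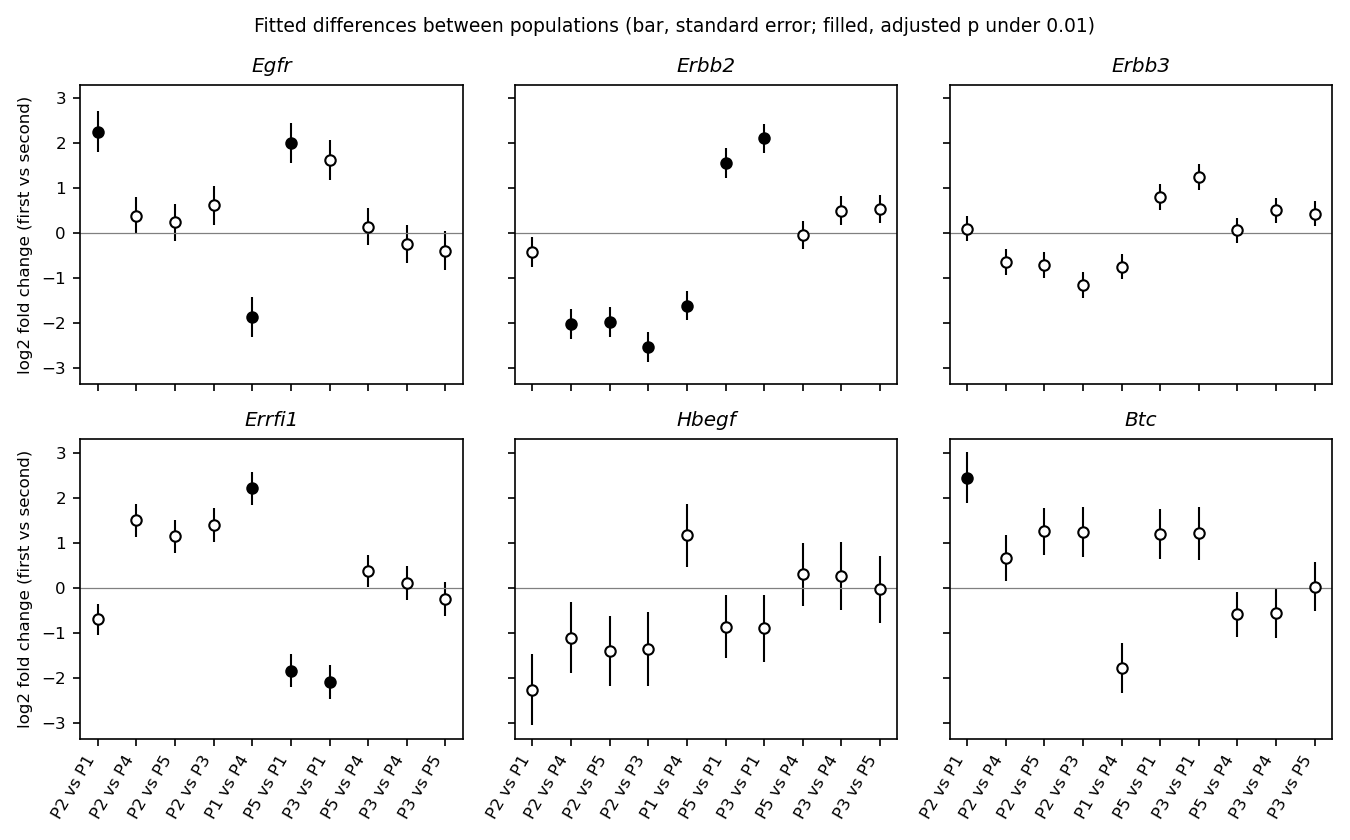
Log2 fold change of 6 members (y axis) in each of the 10 pairs of populations (x axis, first against second), with the SE as a bar and filled points for an adjusted p under 0.01. Filled points are found for Egfr, Erbb2, Errfi1 and Btc, and none of the pairs among P3, P4 and P5 has one.

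Among P3, P4 and P5 the quasi-likelihood test of edgeR called no member and no other gene. Between P5 and P4 0% of genes were called, 351 had an unadjusted p under 0.05, none of them a member, and DESeq2 called 27. Between P3 and P4 0% were called, 2080 had an unadjusted p under 0.05 and DESeq2 called 120. Between P3 and P5 0% were called, 1587 had an unadjusted p under 0.05 and DESeq2 called 41. No member was among the calls of DESeq2 or had an unadjusted p under 0.05 in these 3 pairs. The difference of Erbb2 was -0.04 (SE 0.31) between P5 and P4, and that of Errfi1 was 0.36 (SE 0.36), so changes of the size seen against P1 lie several SE away from these values.

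Taking the labels as given, whether the step from low to high EF1a differed between the low and the medium OSCAR gates was tested as P3 minus P1 less P5 minus P4. The difference was 2.15 for Erbb2 (SE 0.45) and -2.46 for Errfi1 (SE 0.52), each with an adjusted p of 0.0166. Neither passed the threshold, and 0 of 8 members were called, where 0.817% of all genes were. At an unadjusted p under 0.05 there were 5 members and 4653 of the 13708 genes in edgeR's test, and DESeq2 called 2 members and 2004 genes in all. This contrast rests on the libraries labelled P3, whose label goes against the study's description. If the labels P2 and P3 were exchanged, P3 minus P1 would compare OSCARhigh with OSCARlow cells at low EF1a. The contrast would then be no test of an EF1a step.

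Across the 10 libraries, Erbb2 and Erbb3 had a Pearson correlation of 0.921, Egfr and Btc of 0.854, and Erbb2 and Errfi1 of -0.748, on log2 CPM. The genes most like Erbb2 were Nomo1, Gm7666 and Sdc1 (0.990, 0.985 and 0.984), those most like Erbb3 were Cldn15, Tspan15 and St14 (0.986, 0.975 and 0.974), and those most like Egfr were Fam69a, Pkp1 and Rnf149 (0.975, 0.972 and 0.970). Errfi1 was most like Ccdc68, Tdrd7 and Prr14 (0.990, 0.984 and 0.984). For the ligands the nearest genes were Frmd4b, Epb4.1l5 and C330019G07Rik for Btc (0.951, 0.937 and 0.937) and Srpk1, Apol10a and Stom for Hbegf (0.977, 0.962 and 0.958). Areg was nearest to Ddx23, 9130019P16Rik and Ccdc164 (0.953, 0.926 and 0.878), and Ereg to Armc2, 1500002O20Rik and Rps6ka3 (0.969, 0.928 and 0.921), both from few counts. These libraries are pairs of 5 populations and share their scaling, so the values are descriptions.

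Other genes of the pathway were taken from 5 lists of 72 genes, of which 65 passed the filter. The ligands outside the group were Egf, Tgfa, Nrg4, Epgn, Nrg2 and Nrg3, of which Egf, Tgfa and Nrg4 passed the filter. Egf, the founding ligand of EGFR, was the only one called over the 5 populations (adjusted p = 0.000401 in edgeR's test). It stood at 69.6 and 63.6 CPM in the libraries labelled P2 and between 0 and 5.34 CPM in the other 8, so P2 lay far above all of them. P2 exceeded P3 by 6.44 (SE 0.87, adjusted p = 0.000698). P3 replicate 1 had no count of Egf, and the fitted difference was 5.88 without it and 11.7, which is no bound, without P3 replicate 2. It stayed past the threshold in all 18 alternatives. Egf was also called higher in P2 than in P1, P4 and P5, and no ligand of this list was called in any other pair. Egf and the Paneth marker sums were both highest in the libraries labelled P2, and the part of the Paneth cells in the Egf level was not tested.

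The genes of ligand release, Adam10 and Adam17, the sheddases, with the iRhom genes Rhbdf1 and Rhbdf2, had their lowest means in P1. With Timp3, a protease inhibitor whose lowest mean was in P2, 5 genes of the list were tested and 3 were called over the 5 populations (36.3% of all genes), Rhbdf1, Adam10 and Adam17. In P1 against P4, 4 were lower and 0 higher (23.5% of all genes called), with a list median of -1.52 against -0.06 for all genes. P5 against P1 had 4 higher (19.8% of all genes called), P3 against P1 had 3 higher (15.6%), and P2 against P1 had 3 higher (29.1%), with 0 lower in each. Rhbdf1 stood at 6.08 and 3.0 CPM in P1 and 39.5 and 30.7 CPM in P2 (difference 2.94, SE 0.37, adjusted p = 0.000477). Adam10 stood at 34.0 and 44.7 CPM in P1 and 183 and 127 CPM in P3, a difference of 1.98 (SE 0.27, adjusted p = 0.00173). Adam17 differed by 1.58 in the same pair (SE 0.25, adjusted p = 0.00272), and Rhbdf2 by 1.60 (SE 0.30, adjusted p = 0.00475). The calls of Adam10, Adam17 and Rhbdf2 were lost without either P1 library, and that of Rhbdf2 also without P3 replicate 1. P2 was higher than P3 in 1 gene (21.0% of all genes called) and differed from P4 (14.3%) and P5 (15.9%) in none.

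Genes that restrain receptors or the ERK cascade went in both directions. Of 19 tested, 10 were called over the 5 populations (36.3% of all genes), and P1 against P4 had 5 higher and 3 lower (23.5% of all genes called). Dusp6, a phosphatase of ERK, stood at 122 and 140 CPM in P1, at 43.5 and 64.9 CPM in P2 and between 5.02 and 23.8 CPM in the other 6 libraries, so that it was highest in P1 and next in P2, as Errfi1 was. P1 exceeded P4 by 4.69 (SE 0.54, adjusted p = 0.000899), with a range of 4.43 to 4.79 over the alternatives. The call was lost without either P4 library, settings in which no gene of any kind was called between P1 and P4. Lrig1, a membrane protein that lowers ERBB receptor levels, was lowest in P1, at 26.9 and 39.0 CPM. It stood at 223 and 177 CPM in P2 (difference from P1 2.60, SE 0.33, adjusted p = 0.000485). P2 overlapped P4, at 138 and 197 CPM, and P5, at 153 and 195 CPM. Socs4, which has been linked to EGFR turnover, was higher in P1, at 140 and 123 CPM, and P2 minus P1 was -1.5 (SE 0.20, adjusted p = 0.000591). Socs5 stood at 17.9 and 14.5 CPM in P2 and 0.529 and 0.885 CPM in P3 (difference 4.37, SE 0.51, adjusted p = 0.000387). The P3 values lie near the level of 3 counts, 1.59 and 0.664 CPM in those libraries, so the size of this difference rests on few reads. The other pairs with calls are given with the share of all genes called. P2 against P1 had 4 higher and 2 lower (29.1%), P5 against P1 had 4 and 4 (19.8%), and P3 against P1 had 3 and 4 (15.6%). P2 against P5 had 2 and 1 (15.9%), and P2 against P4 (14.3%) and against P3 (21.0%) had 1 and 1 each.

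The adaptors and kinases between receptor and ERK that were called against P1 were, with 1 exception in P2, higher in P1. Of 22 tested, 9 were called over the 5 populations (36.3% of all genes), and P1 against P4 had 10 higher and 0 lower (23.5% of all genes called), with a median of 0.91 against -0.06 for all genes. P5 against P1 had 0 higher and 8 lower (19.8% of all genes called), P3 against P1 had 0 and 5 (15.6%), and P2 against P1 had 1 and 7 (29.1%). Map2k1, the kinase that activates ERK, stood at 257 and 288 CPM in P1 and 54.4 and 52.5 CPM in P4, a difference of 2.35 (SE 0.24, adjusted p = 0.000899). The range over the alternatives was 2.08 to 2.43, and the call was lost in the same settings as that of Dusp6. The RAS exchange factors Sos1 and Sos2 were lower in P3 than in P1, at -1.44 (SE 0.20, adjusted p = 0.00174) and -1.39 (SE 0.20, adjusted p = 0.00184), and both calls were lost without either P1 library. P2 was higher than P3 in 2 genes (21.0% of all genes called) and differed from P4 (14.3%) and P5 (15.9%) in none.

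Among transcripts that ERK is known to induce, Fos and Phlda1 had their highest means in P2, and Junb and Fosl2 in P1. Of 16 tested, 6 were called over the 5 populations, near the 36.3% of all genes, and the libraries labelled P2 exceeded P3 in 5 and were lower in 1 (21.0% of all genes called), with a median of 1.93 against -0.01 for all genes. Fos stood at 663 and 586 CPM in P2, 47.6 and 83.0 CPM in P3 and between 167 and 281 CPM in the other 6 libraries, and the difference between P2 and P3 was 3.25 (SE 0.36, adjusted p = 0.000328). Phlda1 differed by 3.73 in the same pair (SE 0.50, adjusted p = 0.000702). Junb, at 180 and 223 CPM in P1 and 55.0 and 49.1 CPM in P3, differed by -1.96 between P3 and P1 (SE 0.29, adjusted p = 0.00214). The libraries labelled P2 held 159 and 210 CPM of Junb and overlapped P1, with P2 minus P1 at -0.13 (adjusted p = 0.733). Junb was also called higher in P2 than in P4 (1.49, adjusted p = 0.00483) and P3 (1.83, adjusted p = 0.00149). Fosl2 was higher in P1 than in P4 by 1.76 (SE 0.31, adjusted p = 0.00258). The call of Junb was lost without either P1 library or P3 replicate 2, and that of Fosl2 without any single library of P1 or P4. The remaining pairs with calls are again given with the share of all genes called. P2 against P4 had 3 higher and 1 lower (14.3%), P1 against P4 had 2 and 2 (23.5%), and P5 against P1 had 1 and 2 (19.8%). P3 against P1 had 0 and 4 (15.6%), and P2 against P1 (29.1%) and against P5 (15.9%) had 1 and 1 each. In all 5 lists, no gene was called among P3, P4 and P5 or in the contrast between the gates.

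**Figure D4:**
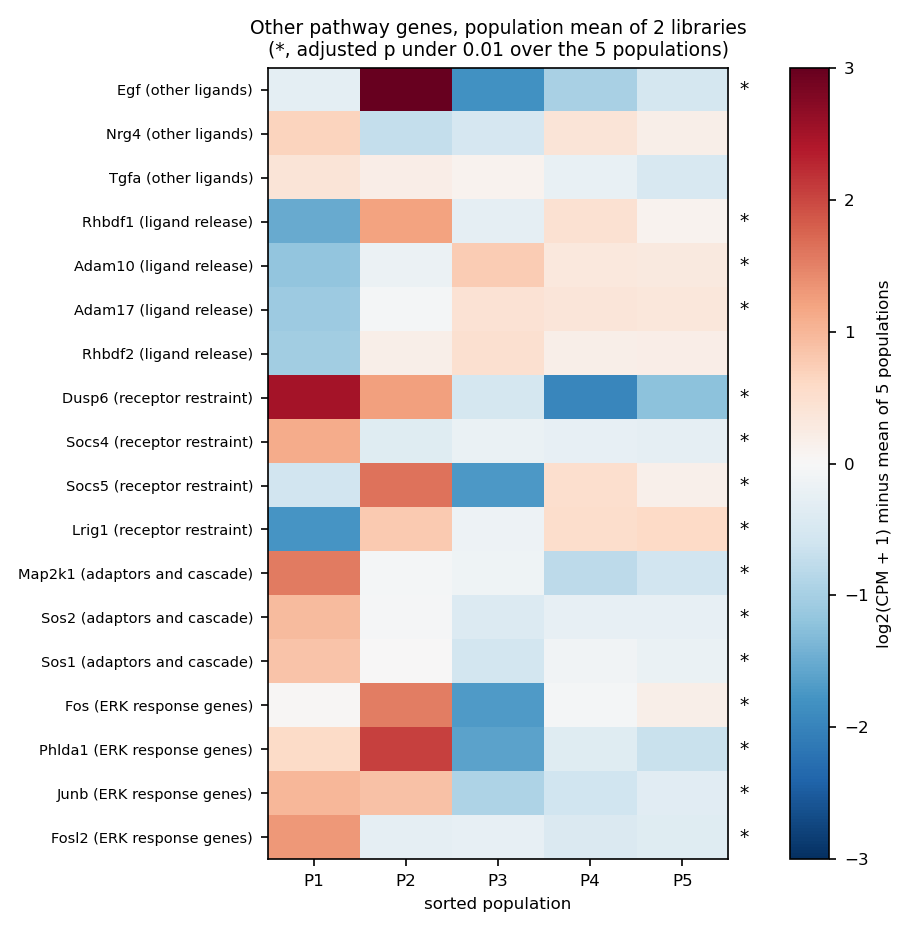
Mean log2(CPM + 1) of 18 pathway genes outside the group (rows, with their list) in each population (columns), minus the mean of the 5 populations, with an asterisk for an adjusted p under 0.01 over the 5 populations. Egf is highest in P2 (69.6 and 63.6 CPM), where the colour scale ends at 3, and Dusp6 and Map2k1 are highest in P1 (122 and 140 CPM, and 257 and 288 CPM).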

How the data were processed

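Poly-A libraries of 5 sorted crypt populations (2 biological replicates each) were analysed. Per the labels and methods, the authors mapped reads to mm9 with TopHat 2.1.0 and Bowtie, after FastQC 0.11.5, and deposited raw counts per gene from HTSeq 0.11.2, counted on exons without strand, so genes that overlap on opposite strands are uncertain. Reads with several alignments were not counted. The annotation used for counting is not given in the sources used here, and 33643 of 35006 row names were found in GENCODE vM1, which served for positions and lengths. A row named with a dot, at most 0.000596% of counts, and 183 rRNA names were removed.

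Groups were taken from the sample titles. Genes were filtered with edgeR's filterByExpr (minimum count 10, total 15, in 2 libraries), which left 13708, scaled with TMM and fitted over all 10 libraries (5 residual degrees of freedom) with the quasi-likelihood test of edgeR 4.0.16 in R 4.3.3, Benjamini-Hochberg adjusted over all genes, at 0.01. SEs were derived from the F statistics. Correlations used log2 CPM with a prior count of 2, and the pathway plot used a pseudocount of 1. Members and lists were chosen with earlier results of these data known. Genes named besides the members are the 4 of each list with the smallest joint adjusted p, each in the pair where its p was smallest (1 of these genes is not reported here), and the 3 genes most like each member.

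The procedure was run on counts simulated from its own fitted model, which cannot show whether its p-values hold for the real libraries. Alternatives were DESeq2 1.42.0, RLE and upper quartile scaling, no filter, a threshold of 0.05, rRNA genes kept, mitochondrial genes removed, a replicate block, the libraries labelled P3 left out and each library left out in turn. Figures were drawn with matplotlib 3.10.9. Depth and the TMM factors set the level of 3 counts between 0.297 and 1.59 CPM.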

Additional observations from a re-analysis of the deposited data

How the results depend on the processing

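Of 58 fold changes recomputed, only that of Erbb2 in P5 against P4 (-0.04) changed sign, to 0.16 without P4 replicate 2 and 0.05 without P5 replicate 1. Most of the 58 were chosen for a low adjusted p in the main fit, or as the pair with a gene's smallest p. They leave out Areg, most pairs among P3, P4 and P5 and many other pairs of the members. Values chosen in this way could hardly change sign, so this count is no test of stability. With DESeq2, 5 members were called over the 5 populations in place of 2, 2 between P2 and P4 in place of 1, 3 between P2 and P3 in place of 1, 4 between P3 and P1 in place of 2, and 2 in the contrast between the gates in place of 0. Without a filter on low counts these counts were 6, 2, 3, 4 and 2, and with an adjusted p under 0.05 they were 5, 2, 3, 4 and 2, and in both settings P2 against P5 had 2 in place of 1. The calls over all genes rose as well, from 4976 over the 5 populations to 7205 with DESeq2, 7932 without a filter and 7933 at 0.05. With upper quartile scaling, P2 against P3 had 2 and the contrast had 1, and Erbb3 was added to the joint test and to P3 against P1, for 3 members in each. Removing mitochondrial genes added Erbb3 to the same tests. RLE scaling added Erbb3 to P3 against P1 and dropped Egfr from P1 against P4. DESeq2 and an adjusted p under 0.05 added Erbb3 to P5 against P1. No filter and an adjusted p under 0.05 each added Hbegf to P2 against P1 and Btc to P1 against P4. Without the libraries labelled P3, P2 against P4 had 2. A joint test over P1, P2, P4 and P5, chosen after seeing the data, called 3 members, Egfr, Erbb2 and Errfi1.

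Leaving out each library in turn gave 1 to 4 members over the 5 populations (1 without P1 replicate 2, 4 without P3 replicate 2), 0 to 2 between P2 and P1 and between P2 and P4, 0 to 1 between P2 and P5, 1 to 2 between P2 and P3, 0 to 3 for P1 against P4, P5 against P1 and P3 against P1, and 0 in the other 4 comparisons. A lone library left in a population is then assumed to vary like the other groups. The counts reached 0 without P1 replicate 1, P1 replicate 2 or P2 replicate 1 for P2 against P1, without P2 replicate 1 or either P4 library for P2 against P4, without P2 replicate 1 or either P5 library for P2 against P5, without P1 replicate 2 or either P4 library for P1 against P4, without any library of P1 or P5 for P5 against P1, and without either P1 library for P3 against P1. In these settings the calls over all genes also fell, to between 1567 and 2151 in P2 against P1 and to between 0 and 1179 in the others, with 0 for P1 against P4 without either P4 library, P5 against P1 without P5 replicate 2 and P3 against P1 without P1 replicate 1.

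The replicate block added Egfr to the joint test and to P3 against P1, for 3 members in each, and changed no other call of a member. The deviations of same-numbered libraries had correlations from -0.0597 to 0.554 over 10 pairs of populations, 9 of them above 0.1. As the labels name no shared animal or day and not every pair passed 0.1, the libraries were not treated as paired. Upper quartile scaling moved the median of all genes by -0.27 (log2) in P1 against P4 and by 0.21 in P5 against P1, and removing mitochondrial genes moved it by -0.20 and 0.16. In P1 against P4, 59.8% of the called genes were higher in P1, against 43.2% with upper quartile scaling and 46.9% without mitochondrial genes. In P5 against P1 the shares were 43.3%, 57.0% and 53.8%. Depth limits Areg, Ereg, Erbb4 and Nrg1 most.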
